A study of Homo sapiens with 12 samples.

Results

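Long noncoding RNAs (lncRNAs) were followed in the polysome fractions of 3 established triple-negative breast cancer (TNBC) cell lines. The members are the genes that GENCODE 44 annotates as lncRNA, apart from GAS5, ZFAS1 and the SNHG genes, with a mean of at least 50 expected counts over the 12 libraries. These were 572 of the 6200 lncRNA genes with any count and of 24676 genes in all, and 22 snoRNA host genes above the same mean were left out by name. MDA-MB-231 and SUM159 cells carried either a non-silencing GIPZ shRNA control, labelled EV CTRL and called EV here, or a GIPZ shRNA plasmid against TRMT112 (KD), both selected with puromycin. BT549 cells were given pReceiver-M02 without an insert (EV) or with the TRMT112 open reading frame (OE), and both were selected with G418. Cells were treated with cycloheximide, lysates were separated on sucrose gradients, and the RNA of the pooled polysome fractions was sequenced, giving 6 groups of 2 libraries. TRMT112 is the cofactor of several methyltransferases that act on ribosomal RNA and tRNA, and the comparisons ask how its loss or gain alters the RNA found on polysomes. Nothing in the labels says that the libraries of a group came from separate cultures, so p-values measure the spread between these libraries, which may be technical. There are no libraries of total RNA, and the amount of an RNA, its loading with ribosomes and the number of cells holding it cannot be told apart in these bulk fractions.

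An lncRNA is a long transcript without an annotated protein product. Some stay in the nucleus, such as MALAT1 in nuclear speckles and NEAT1 in paraspeckles, while others are exported, and many exported lncRNAs sediment with ribosomes because they hold short reading frames that ribosomes can enter. In breast cancer cells lncRNAs are known for their strong restriction to particular cell types and for acting as scaffolds, decoys of RNA-binding proteins or hosts of small RNAs. Many are transcribed head to head with a protein-coding gene from a shared promoter (divergent), and others lie antisense to one.

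The totals assigned to genes lay between 22785057 and 27230158 expected counts per library, and the median absolute log2 difference between the 2 libraries of a group was 0.136 to 0.164 for members and 0.0619 to 0.0750 for all genes. TRMT112 itself fell in both KD lines and rose in OE, with normalized counts of 4148 and 3937 against 1765 and 1682 in MDA-MB-231, 6331 and 6563 against 3907 and 3698 in SUM159 and 3076 and 3089 against 4287 and 4320.2 in BT549 (EV against KD or OE). The mesenchymal marker VIM was high in all libraries, at 16824 to 47498. The epithelial keratins KRT8 and KRT18 were between 4373 and 9862 in MDA-MB-231 and SUM159 and between 4.53 and 17.7 in BT549. The epithelial marker EPCAM did not follow them, with 52.5 to 72.1 in MDA-MB-231 and at most 4.02 in every SUM159 and BT549 library. Of the receptors that TNBC lacks by definition, PGR was at or under 9.97 in every library, and ERBB2 was between 1385 and 3422. No value of the oestrogen receptor gene ESR1 is given here. A normalized count is an expected count scaled by TMM to a common library size.

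NORAD (chr20:36045618-36051018, minus strand) is an abundant cytoplasmic lncRNA that binds the Pumilio proteins through repeated motifs and is known for protecting chromosome stability. The Pumilio motif TGTANATA, searched on the transcript strand only, occurred 15 times in the main NORAD transcript of 5401 bases and 16 times in HCG11 (chr6:26521709-26527404, plus strand), whose main transcript has 5696 bases. Next among the members was LINC00632 with 10 motifs in 21234 bases, and 18.4% of members held at least 1 motif, compared to 31.2% of the 11890 protein-coding genes that reach the same mean. NORAD and HCG11 proved to be copies of each other over nearly their whole length. Their longest match joined 4660 aligned bases at 90.4% identity, from base 59 to 4644 of NORAD and from base 7 to 4591 of HCG11. It held 14 of the NORAD and 15 of the HCG11 motifs, so that their motif counts are not separate observations and reads could be divided between them. The windows below are shown because they carry the feature that sets these members apart. They are the GENCODE 44 transcript sequence, 5′ to 3′, around early motifs, with the motifs in capitals.
NORAD site 1, chr20:36050184-36050209, minus strand: gaaggcctgTGTATATAatatgaaaa
HCG11 site 1, chr6:26522459-26522484, plus strand: gaaggcctgTGTATATAatatgaaaa
NORAD site 3, chr20:36049704-36049729, minus strand: atcacatttTGTAAATAcctttttgt
HCG11 site 2, chr6:26522935-26522960, plus strand: accacatttTGTAAATAtctttttgt
NORAD site 4, chr20:36049503-36049528, minus strand: acttatctgTGTATATAgTGTACATA
HCG11 site 3, chr6:26523134-26523159, plus strand: ttttatctaTGTATATAaTGTACATA
NORAD site 6, chr20:36049120-36049145, minus strand: ataccacttTGTAAATAtctttttgc
HCG11 site 6, chr6:26523528-26523553, plus strand: ataccaattTGTAAATAtctttttgc
The first pair of windows did not differ in any of its 26 bases, and the other pairs, in the order shown, differed in 2, 4 and 1 of them. They are a selection from the first 6 motifs of each transcript. NORAD site 2, not shown, differed from its closest HCG11 window in 11 of 26 bases, and NORAD site 5 differed in 2. HCG11 site 5 was the closest window of none of these NORAD sites. The site 4 window of NORAD and the site 3 window of HCG11 each hold a pair of motifs.

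Members differed from mRNAs in structure. The median member had a main transcript of 2252 bases in 2 exons whose longest reading frame from ATG had 99 codons. The median of the protein-coding genes was 3119.5 bases, 9 exons and 449 codons. By position, 240 members were divergent, with a start within 1000 bases of a coding gene's start on the other strand, 206 were intergenic, 81 antisense and 45 overlapped a coding gene on the same strand. Only the distance was used, so a member that starts inside its neighbour and overlaps it also counts as divergent. Of the 240, 107 shared no exon base with a coding gene. The longest frames of 2 members whose polysome levels are described below are printed because polysome fractions hold RNA bound by ribosomes. They are the longest frames from ATG in the main transcript, which held 94.6% of the DANCR and 68.5% of the CYTOR counts, and other transcripts were not examined. A frame is a description of the sequence and not evidence that it is translated. The start and stop codons are in capitals, and the sequences are from the GENCODE 44 main transcripts on GRCh38.
DANCR, 59 codons, bases 520 to 699 of the transcript, chr4:52713674-52713853, plus strand: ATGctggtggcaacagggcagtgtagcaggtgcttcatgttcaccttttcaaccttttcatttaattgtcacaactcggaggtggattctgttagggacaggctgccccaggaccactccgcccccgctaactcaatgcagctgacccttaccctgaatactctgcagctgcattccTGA
CYTOR, 52 codons, bases 266 to 424 of the transcript, chr2:87521255-87521413, plus strand: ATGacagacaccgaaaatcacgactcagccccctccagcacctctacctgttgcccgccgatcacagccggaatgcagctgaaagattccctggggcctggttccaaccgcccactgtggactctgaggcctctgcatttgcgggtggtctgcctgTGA

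The members together held less than 1 in 100 of the counts of every library. MDA-MB-231 cells had shares of 0.601% and 0.604% with EV against 0.544% and 0.542% after KD. The SUM159 shares were 0.680% and 0.661% with EV against 0.676% and 0.674% after KD. BT549 had the lowest share, 0.384% and 0.389% in EV, and reached 0.492% and 0.512% in OE. The KD libraries lay below EV in MDA-MB-231 and the OE libraries above EV in BT549 without overlap, while the SUM159 groups overlapped. The log2 ratio of the mean shares was -0.15 in MDA-MB-231, 0.01 in SUM159 and 0.37 in BT549. The two-sided exact permutation test gave p = 0.333, p = 1 and p = 0.333, where 0.333 is the smallest p that 2 against 2 libraries allow. Part of these shares came from 3 members on ribosomal RNA genes of chromosome 21. ENSG00000281181 (chr21:8437629-8438551, minus strand) lies wholly within RNA18SN1 (chr21:8436876-8438744), and it alone held 5.06% to 14.7% of the member counts. ENSG00000280614 (chr21:8393419-8394341) lies within RNA18SN3, and ENSG00000280441 (chr21:8380643-8454792) spans both RNA45SN3 and RNA45SN1. Without these 3 members the shares were 0.569% and 0.568% against 0.490% and 0.494% in MDA-MB-231, 0.582% and 0.584% against 0.613% and 0.619% in SUM159, and 0.333% and 0.330% against 0.434% and 0.440% in BT549. The SUM159 groups then no longer overlapped, with KD the higher. The log2 ratio in SUM159 was 0.08 without them and -0.20 when levels were divided by transcript length, and it was 0.01 with the counts as they stand.

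**Figure D1:**
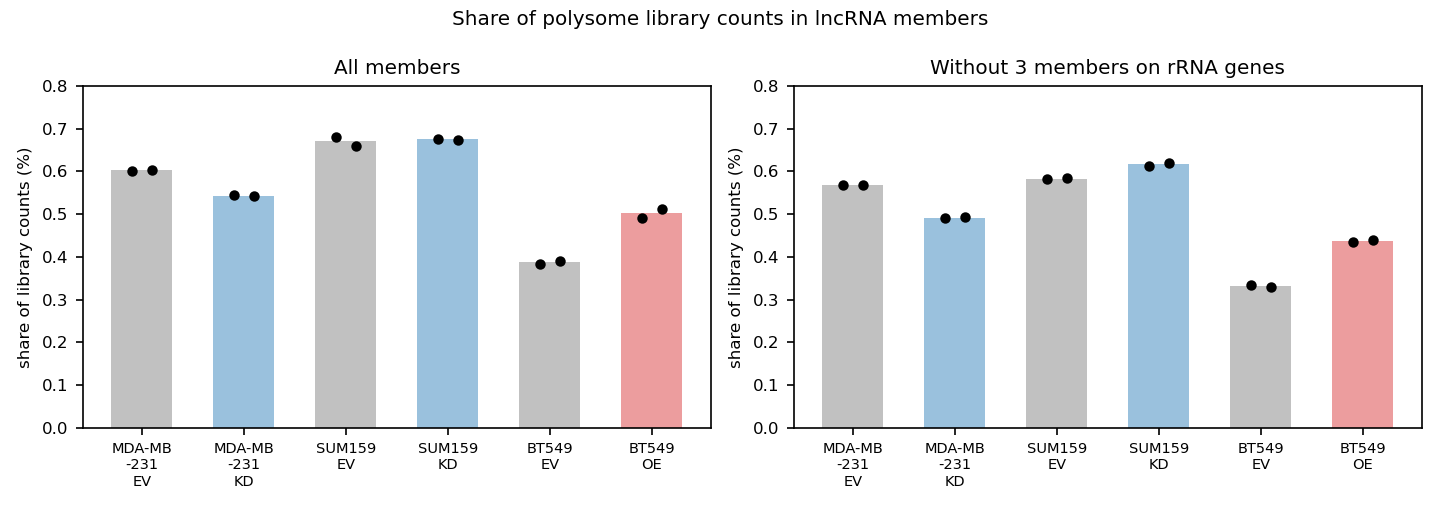
Share of each polysome library's counts in lncRNA members, in percent, for all members (left) and without the 3 members on ribosomal RNA genes (right). Points are libraries and bars their group means (n = 2), and in both panels BT549 EV is the lowest group, at 0.384% and 0.389% on the left.

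Per transcript length, the members with the highest mean level over the libraries were ENSG00000281181 within the 18S gene (1057 TPM, read counts per transcript length scaled to a common total), IRX2-DT (219), THY1-AS1 (169.5), CYTOR (163), HEXIM2-AS1 (82.2), DANCR (75.3), MIR4435-2HG (73.4), ENSG00000274333 (58.4), PVT1 (55.7) and GTF2IP1 (54.3). Several of these were high in 1 line only or share their sequence with another gene. CYTOR, the cytoskeleton regulator RNA on chromosome 2, and MIR4435-2HG are near-identical copies, with 100% of the CYTOR exon bases matched, so their counts may be divided arbitrarily between them. The same holds for GTF2IP1, a pseudogene of the transcription factor gene GTF2I, and in all 82 members had a copy of at least 95% identity over at least 50% of their length. THY1-AS1 lies with 100% of its exon bases in exons of THY1, and HEXIM2-AS1 with 91.2% in HEXIM1. Of the 572 members, 226 shared exon bases with a coding gene, 185 of them on the opposite strand. The study's methods name a stranded kit after rRNA depletion and the labels poly(A) enrichment. The strand setting of the counting is not given in the sources used here, so reads of such members and of their partners cannot be told apart.

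The levels of most members differed between the lines, as did those of most genes. Among EV libraries, 194 members were higher and 231 lower in MDA-MB-231 than in SUM159, at an adjusted p-value under 0.05 (edgeR's quasi-likelihood test with Benjamini-Hochberg adjustment over all 16560 genes tested), or 74.3% of the members against 75.5% of all genes. BT549 stood lower than both other lines. It had 158 members higher and 294 lower than MDA-MB-231 (79% called, against 79.5% of all genes), and 141 higher and 313 lower than SUM159 (79.4% against 78.4%), with 37.7% and 40.7% of all genes in this last comparison. The member counts were 119 and 328, and 120 and 352, when libraries were scaled by their totals alone. All genes were split more evenly, with 39.1% higher and 40.4% lower in BT549 than in MDA-MB-231, but 5105 higher and 8201 lower under scaling by totals. Since every member passed the rule on its mean over all libraries, 173 members would fall under 50 counts without 1 of the lines (70 without MDA-MB-231, 81 without SUM159 and 34 without BT549), some for more than 1 line. In the same way, 12 to 41 members would fall under it without 1 of the 6 groups. These were 40 without MDA-MB-231 EV and 22 without its KD, and 22 without SUM159 EV and 41 without its KD. They were 12 without BT549 EV and 19 without its OE. The rule thus favours members that are high in 1 line or group. In each pair it leans in the direction of the balance of calls given below, and how far it moves that balance was not tested.

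With at least 90% of the summed EV means in 1 line, 48 members were line-specific: 21 in MDA-MB-231, 15 in SUM159 and 12 in BT549. That is 8.39% of members, beside 5.37% of the 11890 protein-coding genes, and 44 of the 48 would miss the rule without their line. At a cut of 80% the counts were 32, 22 and 15, and at 95% 11, 15 and 7. The most abundant was IRX2-DT (chr5:2752131-2755397, plus strand), divergent to the homeobox gene IRX2. It had 10436 and 10133 normalized counts in SUM159 EV and 6196 and 5288 in SUM159 KD, 0 in all MDA-MB-231 and BT549 EV libraries, and 4.43 and 0 in BT549 OE. It was thus a SUM159 RNA, at least 3428-fold higher there than in either other line against a floor of 3 counts per library. It made up 6.67% and 6.66% of the member counts of SUM159 EV and 3.87% and 3.33% of KD. CDH13-AS2 (chr16:83789967-83807834, minus strand), of whose exon bases 71.5% lie in CDH13, had 1025 and 1029 in SUM159 EV, 26.3 and 21.9 in MDA-MB-231 EV and 0 in BT549. ENSG00000260604 (chr6:3904920-3912072, minus strand), an intergenic lncRNA, had 1014 and 959 in SUM159 EV and at most 4.38 in the EV libraries of the other lines. In MDA-MB-231 the leading line-specific members were ENSG00000227706 (chr6:67878316-67889339, minus strand) with 1726 and 1575 and the copies ENSG00000274333 and ENSG00000275496 on chromosome 21, with 1512 and 1350.2 and 744 and 755. All 3 were far lower or at 0 in the EV libraries of the other lines, where ENSG00000274333 reached 183 and 124 in SUM159. BT549 EV was marked by THY1-AS1 with 1291 and 1223, ENSG00000287263 (chr5:42983636-42993340) with 939 and 1004 and HCG11 with 643 and 653. HCG11 was between 10.4 and 28.3 in the 8 libraries of the other lines, although its copy NORAD was between 2228 and 3962 there, and NORAD was 2337 and 2396 in BT549 EV.

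**Figure D2:**
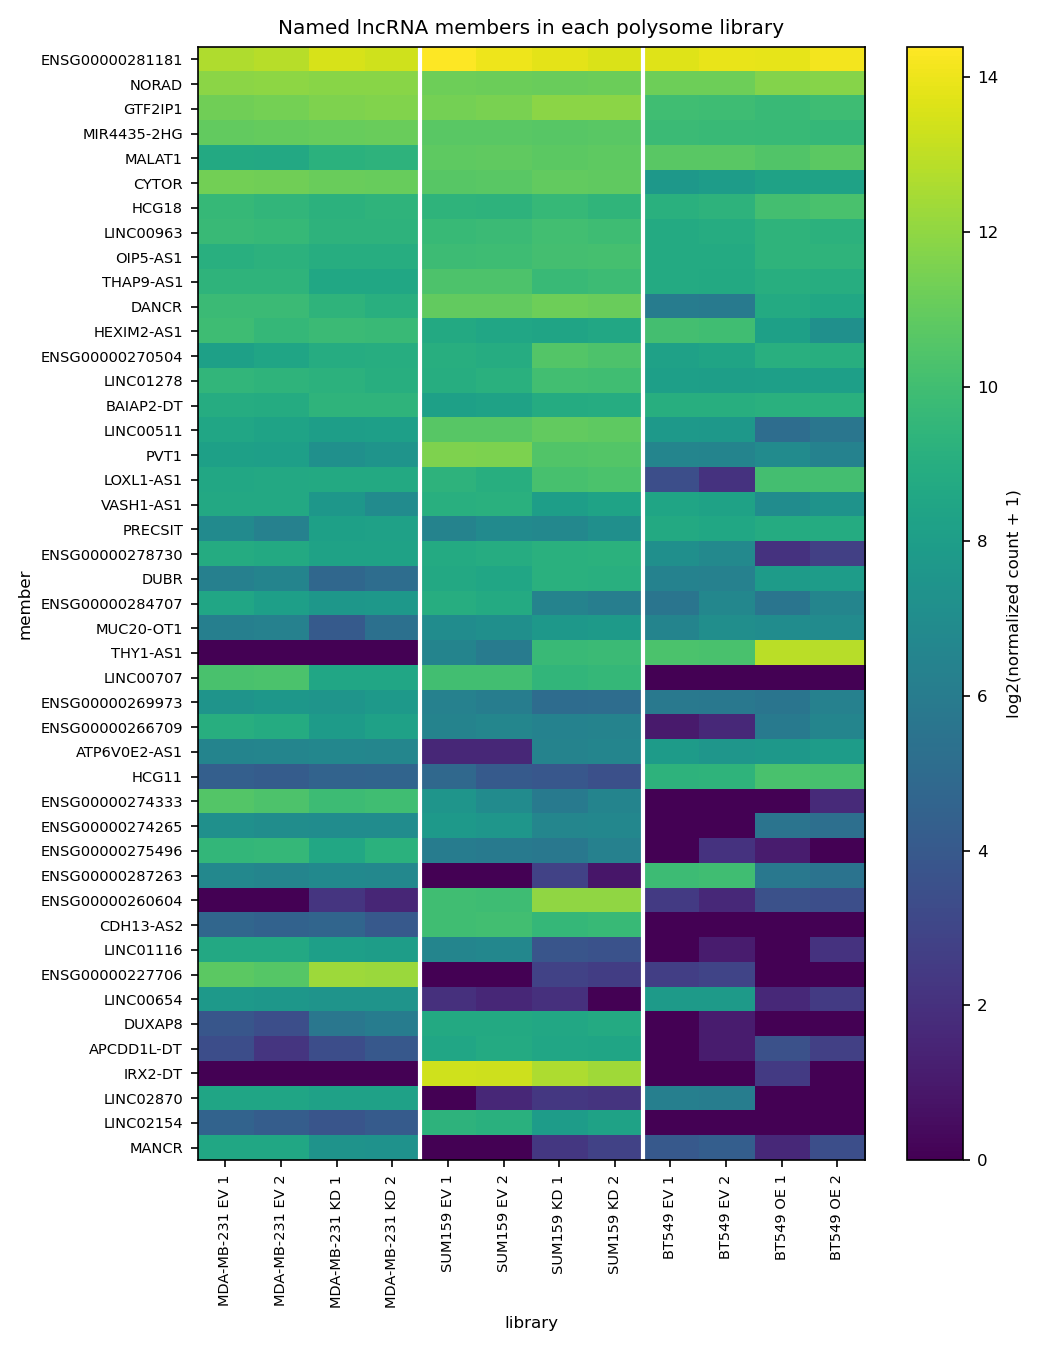
log2(normalized count + 1) of the 45 members chosen by rule (rows, ordered by their mean) in each of the 12 polysome libraries (columns). White lines part the 3 cell lines, and the dark cells show members at or near 0 in a whole line, such as IRX2-DT outside SUM159 and LINC00707 in BT549.

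In MDA-MB-231, more members fell than rose on TRMT112 KD. Of the 572, 137 fell (24%, against 16.5% of all genes tested) and 43 rose (7.52%, against 21.2%). Of the protein-coding genes above the same mean, 20.2% fell and 28.1% rose. The median log2 fold change was -0.19, or -0.18 with members at or under 3 counts in a group set to their bound, compared to 0.00 over all genes and 0.02 over the protein-coding genes above the same mean. Without KD replicate 1 the number that rose was 28. With libraries scaled by their totals alone 36 rose and 186 fell, a scaling under which all genes had 2362 higher and 4083 lower. Changes were mostly small, with 9 members higher (1.57%, against 1.59% of all genes) and 16 lower (2.8%, against 1.62%) by at least 1 on the log2 scale. Of the 150 members with a mean of at least 200 counts, 19 rose and 62 fell. LINC00707 (chr10:6779549-6842906, plus strand), an intergenic lncRNA, had 1212 and 1273 normalized counts in the EV libraries and 371 and 369 in the KD libraries. Both KD libraries lay far below EV, and the log2 fold change was -1.75 (SE 0.07, adjusted p = 2.06e-13). MUC20-OT1, an lncRNA from the region of the mucin gene MUC20 with a copy of part of its sequence in SDHAP1, fell from 74.3 and 79.4 to 15.9 and 39.5, a log2 fold change of -1.47 (SE 0.30, adjusted p = 0.000335). DUBR, an intergenic lncRNA on chromosome 3, fell from 76.2 and 90.4 to 27.2 and 33.7. VASH1-AS1, antisense to the vasohibin gene VASH1, fell from 419 and 411 to 193 and 121. Their log2 fold changes were -1.45 (SE 0.20, adjusted p = 3.4e-06) and -1.40 (SE 0.15, adjusted p = 1.03e-07). These 4 were the members that fell most among those called, above a mean of 100 counts and with groups that did not overlap. The separation of their EV and KD libraries was thus a condition for naming them. ENSG00000227706, already the leading MDA-MB-231-specific lncRNA, rose from 1726 and 1575 to 5079.6 and 4883, a log2 fold change of 1.59 (SE 0.05, adjusted p = 2.23e-15). DUXAP8, an lncRNA derived from a DUX pseudogene with a near-identical copy in DUXAP10, rose from 13.2 and 10.0 to 50.6 and 65.5, a log2 fold change of 2.31 (SE 0.29, adjusted p = 1.4e-06). PRECSIT, known as a p53-regulated lncRNA, rose from 119 and 80.3 to 286 and 295, a log2 fold change of 1.54 (SE 0.17, adjusted p = 1.13e-07). ENSG00000260604 also passed the test, with 0 counts in both EV libraries and 3.94 and 1.57 expected counts in KD, too few for a fold. The call was lost without either EV replicate or without KD replicate 1 (adjusted p = 0.0776, 0.0816 and 0.0999).

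In SUM159 KD the balance was the opposite, with 184 members higher (32.2%, against 28.6% of all genes) and 113 lower (19.8%, against 31.5%). Of the protein-coding genes above the same mean, 34.1% were higher and 39.5% lower. The share of members that rose was thus not above that of these genes, while the share that fell was below it. The median log2 fold change was 0.15, or 0.14 with members at or under 3 counts at their bound (0.00 over all genes). The rule itself tilts this balance, since 41 members would fall under its minimum without SUM159 KD and 22 without SUM159 EV. By at least 1 on the log2 scale, 54 were higher (9.44%, against 7.26% of all genes) and 34 lower (5.94%, against 8.43%). The SUM159-specific ENSG00000260604 had 1014 and 959 normalized counts in the EV libraries and 4082 and 4049 in the KD libraries, a log2 fold change of 2.04 (SE 0.06, adjusted p = 1.7e-18). ATP6V0E2-AS1 (chr7:149867697-149880610, minus strand) lies divergent to a gene for a subunit of the vacuolar proton pump. It had 2.02 and 2.01 normalized counts in the EV libraries and 85.7 and 92.5 in the KD libraries, or 44.4-fold higher (95% exact binomial interval 17.0 to 164, from 192 against 4 summed counts), where the interval covers counting error only. The coding neighbour ATP6V0E2 rose by 2.36 on the log2 scale, and 20.9% of the lncRNA's exon bases lie in it. MANCR, ENSG00000227706 and ENSG00000287263 were at 0 in both EV libraries and had 3.99 and 7, 6 and 6, and 6 and 0.795 expected counts in KD. The call for ENSG00000287263 was lost without KD replicate 1 (adjusted p = 0.238) and without either EV replicate (adjusted p = 0.0674 and 0.0679). LINC01116 (chr2:176611437-176637931, minus strand), an lncRNA reported to encode a small protein, fell most among members above a mean of 100 counts. It had 92.8 and 99.5 normalized counts in the EV libraries and 13.1 and 11.2 in the KD libraries, a log2 fold change of -2.98 (SE 0.27, adjusted p = 1.43e-09). ENSG00000284707 fell from 495 and 440.2 to 85.7 and 70.9, a log2 fold change of -2.59 (SE 0.21, adjusted p = 1.73e-10). Of its exon bases 75.2% are those of ASNS, the asparagine synthetase gene, which fell by 2.73 on the same scale. ENSG00000269973 and LINC02154 fell from 78.7 and 67.3 to 33.3 and 34.6 and from 643 and 558 to 244 and 316, with log2 fold changes of -1.10 (SE 0.25, adjusted p = 0.000486) and -1.10 (SE 0.13, adjusted p = 3.43e-07). IRX2-DT, the SUM159-specific RNA described above, fell from 10436 and 10133 to 6196 and 5288, a log2 fold change of -0.84 (SE 0.05, adjusted p = 3.38e-11). Groups that did not overlap were a condition for naming the members with the largest changes. IRX2-DT and ENSG00000260604, named in SUM159 by other rules, had such groups too.

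**Figure D3:**
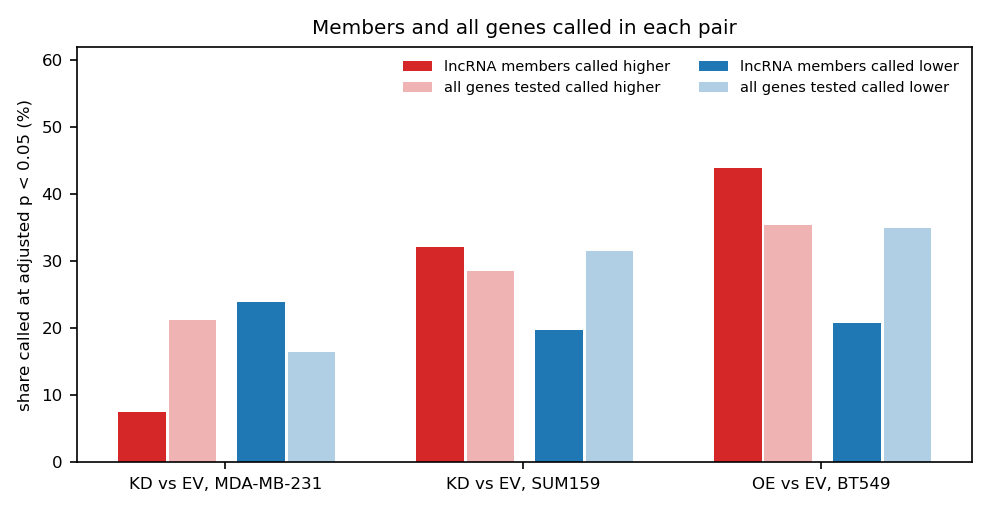
Share of the 572 lncRNA members (dark bars) and of all 16560 genes tested (light bars), in percent, that passed an adjusted p of 0.05 with a higher (red) or lower (blue) level in KD or OE than in EV. The blue member bar is above its background only in MDA-MB-231 (24% against 16.5%). The red one is above it in SUM159 (32.2% against 28.6%) and BT549 (43.9% against 35.5%). Unlike the members, the genes of the light bars did not have to reach a mean of 50 counts. Of the protein-coding genes that reach it, 20.2% were lower in MDA-MB-231, and 34.1% and 39.2% were higher in SUM159 and BT549.

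The effect of KD differed between the lines for many members. In a test of the difference itself, 181 members had a lower log2 fold change in MDA-MB-231 than in SUM159 (31.6%, against 23.2% of all genes) and 54 a higher one (9.44%, against 27.7%). Of 104 members called in both lines, 30 fell in both (28.8%), 15 rose in both (14.4%), 50 fell in MDA-MB-231 and rose in SUM159 (48.1%), and 9 did the reverse (8.65%). Of the 4727 genes of any kind called in both lines, 26.2% fell in both, 30.9% rose in both, 17% fell in MDA-MB-231 and rose in SUM159, and 25.8% did the reverse. LINC00707 fell in SUM159 too, from 1068 and 1051 to 702 and 769, with a log2 fold change of -0.52 (SE 0.07, adjusted p = 1e-06), and its effects differed by -1.22 (SE 0.10, adjusted p = 1.81e-09). PVT1, from a locus amplified in many cancers, fell from 288 and 275 to 146 and 175 in MDA-MB-231 and from 3181 and 3059 to 1440.1 and 1502 in SUM159, with log2 fold changes of -0.81 (SE 0.12, adjusted p = 5.84e-06) and -1.08 (SE 0.06, adjusted p = 3.72e-13). THAP9-AS1, divergent to THAP9, fell from 666 and 657 to 382 and 377 and from 1302 and 1349.6 to 872 and 927, with log2 fold changes of -0.80 (SE 0.07, adjusted p = 6.97e-09) and -0.56 (SE 0.06, adjusted p = 2.16e-08). In both lines the EV and KD libraries of these 3 members did not overlap. That follows largely from naming them for the smallest p among members that fell in both lines, and is no further evidence. Rising in both lines were GTF2IP1, BAIAP2-DT and ENSG00000270504. GTF2IP1 rose by 0.33 (SE 0.05, adjusted p = 6.21e-06) and 0.46 (SE 0.05, adjusted p = 1.24e-08), BAIAP2-DT by 0.48 (SE 0.07, adjusted p = 1.36e-05) and 0.66 (SE 0.08, adjusted p = 2.8e-07), and ENSG00000270504, divergent to PXDC1, by 0.60 (SE 0.10, adjusted p = 2.5e-05) and 1.50 (SE 0.08, adjusted p = 1.37e-13), in MDA-MB-231 and SUM159 in this order. MUC20-OT1 and DUBR moved in opposite directions in these lines. DUBR, which fell in MDA-MB-231, rose in SUM159 from 408 and 367 to 570.4 and 538, a log2 fold change of 0.52 (SE 0.10, adjusted p = 0.00012), and its effects differed by -1.97 (SE 0.22, adjusted p = 8.98e-08). MUC20-OT1 rose in SUM159 from 127 and 145 to 199.5 and 227, a log2 fold change of 0.65 (SE 0.20, adjusted p = 0.00828), a call that was lost without EV replicate 1 (adjusted p = 0.0707) or KD replicate 2 (adjusted p = 0.0774), and its effects differed by -2.13 (SE 0.36, adjusted p = 2.54e-05). DUXAP8 had 431 and 421 normalized counts in the EV libraries and 389 and 449.6 in the KD libraries in SUM159, where the groups overlapped, and its effects differed by 2.33 (SE 0.32, adjusted p = 2.02e-06). ENSG00000276850, chosen after its values were seen, had the widest gap of the members that rose in MDA-MB-231 and fell in SUM159. It went from 7.53 and 3.65 to 15.9 and 13.5 in MDA-MB-231 and from 318 and 262 to 6.05 and 5.19 in SUM159, with log2 fold changes of 1.38 (SE 0.49, adjusted p = 0.0309) and -5.67 (SE 0.34, adjusted p = 4.3e-12).

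**Figure D4:**
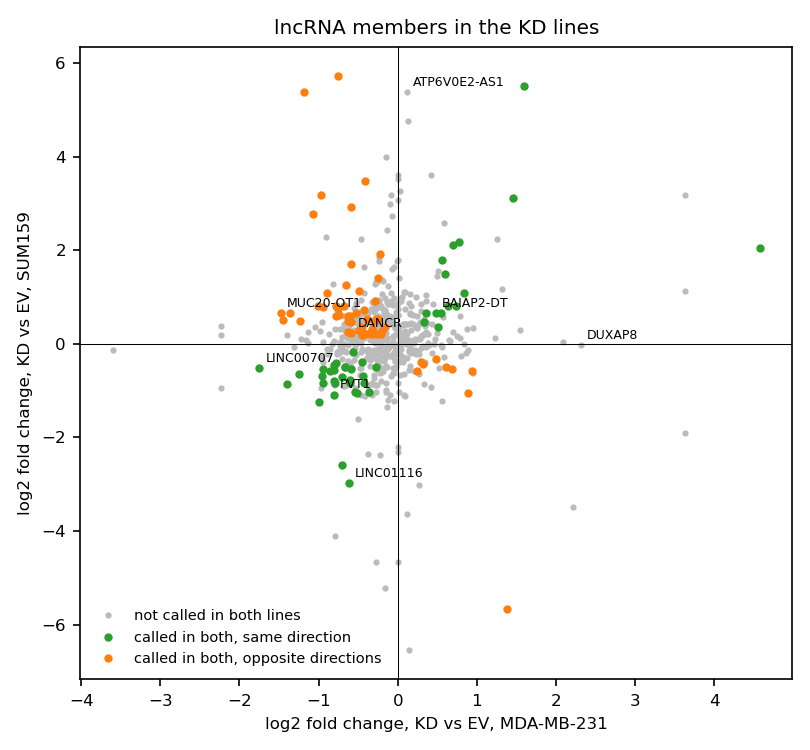
log2 fold changes of the 572 members on KD in MDA-MB-231 (horizontal) and SUM159 (vertical), with members called in both lines in green (same direction, 45) or orange (opposite directions, 59). Most orange points lie at the upper left (50 members lower in MDA-MB-231 and higher in SUM159), and the values above 5 in SUM159 are of members at or near 0 counts in EV.

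TRMT112 OE in BT549 moved the largest number of members, as it did for all genes. In OE 251 members were higher (43.9%, against 35.5% of all genes) and 119 lower (20.8%, against 35%). Of the protein-coding genes above the same mean, 39.2% were higher and 42% lower. The median log2 fold change was 0.36, or 0.31 when members at or under 3 counts in a group were set to their bound, compared to 0.02 over all genes and -0.03 over the protein-coding genes above the same mean. By at least 1 on the log2 scale, 153 were higher (26.7%, against 16.1%) and 67 lower (11.7%, against 15.2%). By position, 130 of 240 divergent members rose and 36 fell, and 22 of 45 members overlapping a coding gene on the same strand rose and 4 fell. Of 206 intergenic members 74 rose and 60 fell, and of 81 antisense members 25 rose and 19 fell. The difference between these classes was not tested. LOXL1-AS1 (chr15:73908071-73928248, minus strand), antisense to a gene for an enzyme that crosslinks elastin and collagen, had the largest increase of the members named here by a fold that is not a bound. It had 9.86 and 3.32 normalized counts in the EV libraries and 1102 and 1069.9 in the OE libraries, a log2 fold change of 7.33 (SE 0.19, adjusted p = 3.57e-20). SUM159 had 621 and 516 with EV and 1181 and 1251 with KD. LOXL1 itself rose from 35.0 and 31.0 to 1780.0 and 1630.3, and 4.77% of the lncRNA's exon bases lie in it. THY1-AS1 rose from 1291 and 1223 to 7699 and 7506, a log2 fold change of 2.60 (SE 0.05, adjusted p = 2.3e-20), or from 1.26% and 1.18% to 5.90% and 5.62% of the member counts. THY1, whose exons contain it, had 2.57 (SE 0.03, adjusted p = 5.92e-25), and in SUM159 KD the log2 fold changes of lncRNA and gene were 3.53 (SE 0.11, adjusted p = 4.06e-17) and 3.42 (SE 0.04, adjusted p = 8.27e-24). ENSG00000274265 rose from 0 and 0 to 45.4 and 37.4, at least 13.8-fold higher. ENSG00000266709 was 46.4-fold higher (95% exact binomial interval 15.6 to 228, from 137 against 3 summed counts). APCDD1L-DT was 15.2-fold higher (95% exact binomial interval 2.35 to 642, from 15 against 1 summed counts). DANCR, an lncRNA known for keeping progenitor cells undifferentiated, rose from 65.7 and 58.7 to 438 and 386, a log2 fold change of 2.72 (SE 0.14, adjusted p = 3.11e-14). HCG11 rose from 643 and 653 to 1204 and 1171 and NORAD from 2337 and 2396 to 3398 and 3507, with log2 fold changes of 0.87 (SE 0.09, adjusted p = 5.82e-09) and 0.54 (SE 0.04, adjusted p = 2.98e-11).

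Among the members that fell in BT549 OE, LINC02870 (chr10:132444327-132449408) fell from 73.4 and 66.5 to 0 and 0, at least 23.3-fold lower. LINC00654 fell from 232 and 230.4 to 2.22 and 4.53, a log2 fold change of -6.05 (SE 0.34, adjusted p = 1.15e-13), and ENSG00000278730 fell from 145 and 107 to 3.32 and 5.66, a log2 fold change of -4.78 (SE 0.31, adjusted p = 2e-12). LINC02870 and LINC00654 were at most 4.03 in every SUM159 library, whereas ENSG00000278730 was between 448 and 582 there. ENSG00000227706 fell from 5.48 and 6.65 to 0 and 0, at least 2.02-fold lower. LINC00511 fell from 214 and 202 to 34.3 and 48.7, a log2 fold change of -2.32 (SE 0.16, adjusted p = 9.81e-12). HEXIM2-AS1 fell from 1079.9 and 1009 to 287 and 146, a log2 fold change of -2.27 (SE 0.16, adjusted p = 7.54e-12), beside -2.38 (SE 0.10, adjusted p = 5.89e-16) for HEXIM1, the inhibitor of the transcription elongation factor P-TEFb, in whose exons it mostly lies. ENSG00000287263, specific to BT549, fell from 939 and 1004 to 53.2 and 43.0, a log2 fold change of -4.33 (SE 0.16, adjusted p = 1.86e-16). Over all 3 pairs 69 members were called in each (12.1%, against 23.8% of all genes) and 74 in none (12.9%, against 14.4%). Of the members, 13 fell in both KD lines and rose in OE (2.27%, against 3% of all genes), and 4 rose in both KD lines and fell in OE (0.699%, against 3.82%).

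Of 15 listed lncRNAs known as cytoplasmic, 13 were members. In MDA-MB-231 KD 9 of them fell and 1 rose, beside 16.5% and 21.2% of all genes. In SUM159 KD 7 rose and 2 fell (28.6% and 31.5% of all genes), and in BT549 OE 8 rose and 1 fell (35.5% and 35%). They had median log2 fold changes of -0.28, 0.21 and 0.50, compared to 0.00, 0.00 and 0.02 over all genes tested. Over all 572 members the medians were -0.19, 0.15 and 0.36, so these directions were those of the members in general. Of the 150 members with a mean of at least 200 counts, 41.3% fell in MDA-MB-231 KD. In SUM159 KD 45.3% of them rose, and in OE 47.3%. Whether the list differs from other members was not tested. DANCR was 889 and 897 in MDA-MB-231 EV and 651 and 535 in KD, a log2 fold change of -0.59 (SE 0.08, adjusted p = 1.27e-06), and 1953 and 1944 against 2350.1 and 2240.0 in SUM159, 0.24 (SE 0.06, adjusted p = 0.00161). Its KD libraries were below EV in the first line and above EV in the second, and the effects differed by -0.83 (SE 0.10, adjusted p = 1.38e-07). CYTOR had log2 fold changes of -0.21 (SE 0.05, adjusted p = 0.000827) in MDA-MB-231, 0.21 (SE 0.05, adjusted p = 0.000658) in SUM159 and 0.50 (SE 0.09, adjusted p = 5.76e-05) in OE, all called. Its copy MIR4435-2HG had log2 fold changes of 0.11 (SE 0.05, adjusted p = 0.0908), -0.01 (SE 0.05, adjusted p = 0.903) and -0.14 (SE 0.06, adjusted p = 0.0497). LINC00963 had -0.40 (SE 0.07, adjusted p = 6.37e-05), 0.21 (SE 0.06, adjusted p = 0.00722) and 0.46 (SE 0.08, adjusted p = 1.3e-05). OIP5-AS1, known for binding the RNA-binding protein HuR, had -0.16 (SE 0.07, adjusted p = 0.0886), 0.23 (SE 0.06, adjusted p = 0.00364) and 0.56 (SE 0.08, adjusted p = 9.25e-07). LINC01278 had -0.28 (SE 0.08, adjusted p = 0.00952), 0.92 (SE 0.08, adjusted p = 8.51e-10) and 0.04 (SE 0.11, adjusted p = 0.772), and LINC00511 had -0.34 (SE 0.09, adjusted p = 0.00616) and 0.20 (SE 0.06, adjusted p = 0.00564) on KD. NORAD had -0.10 (SE 0.04, adjusted p = 0.033) in MDA-MB-231 and -0.06 (SE 0.04, adjusted p = 0.232) in SUM159. Several of these small calls rested on single libraries. In MDA-MB-231 that of NORAD was lost without EV replicate 2, KD replicate 1 or KD replicate 2 (adjusted p = 0.372, 0.134 and 0.131), and also with RLE scaling (0.0905), with no filter (0.0790) and with DESeq2 (0.120). In the same line those of LINC00511 were lost without EV replicate 1 or KD replicate 1 (0.0813 and 0.0736), and of LINC01278 without EV replicate 1 or KD replicate 2 (0.131 and 0.213). In SUM159 those of LINC00963 were lost without EV replicate 1 or KD replicate 1 (0.115 and 0.0681), of LINC00511 without KD replicate 1 (0.105) and of OIP5-AS1 without EV replicate 1 (0.0627). In OE the call of MIR4435-2HG was lost without EV replicate 1 or OE replicate 2 (0.246 and 0.393). It was also lost under 8 of the other alternatives, with adjusted p-values between 0.0502 and 0.0938.

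Nuclear lncRNAs were also found in the polysome fractions. Of 10 listed, 5 were members, with 1 higher and 2 lower in MDA-MB-231 KD, 1 lower in SUM159 KD, and 1 higher and 2 lower in OE. Over all genes 21.2% were higher and 16.5% lower in MDA-MB-231 KD, 28.6% and 31.5% in SUM159 KD, and 35.5% and 35% in OE, the background for this and the following lists of 4 to 7 members. MALAT1 was 421 and 405 in MDA-MB-231 EV and 582 and 621 in KD, a log2 fold change of 0.54 (SE 0.09, adjusted p = 4.89e-05), and between 1433 and 1863 in the 8 libraries of the other lines, with -0.03 (SE 0.07, adjusted p = 0.705) in SUM159 and -0.05 (SE 0.07, adjusted p = 0.525) in BT549. FTX and JPX, lncRNAs of the X-inactivation centre, fell in OE, from 196 and 192 to 33.2 and 73.6 and from 195 and 263 to 59.8 and 73.6. NEAT1, also the only member of 12 listed p53 and DNA damage lncRNAs, rose in OE from 32.9 and 37.7 to 112 and 169.8, a log2 fold change of 1.99 (SE 0.32, adjusted p = 8.23e-06). Of 28 listed microRNA host genes 7 were members, with 0 higher and 1 lower in MDA-MB-231 KD, 3 and 1 in SUM159 KD, and 1 and 2 in OE. None of 13 imprinted-locus lncRNAs was a member. Among 10 lncRNAs reported to encode small proteins 5 were members, of which 3 fell in MDA-MB-231 KD, 1 rose and 3 fell in SUM159 KD, and 2 rose in OE. The one that rose in SUM159 was LINC00665, chosen for mention after its values were seen, as were the other list members under a mean of 500 counts named here and below. It had 26.2 and 50.2 normalized counts in the EV libraries and 418 and 434 in the KD libraries, a log2 fold change of 3.47 (SE 0.16, adjusted p = 4.47e-15).

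Members of the HOX clusters and beside matrix genes included some that appeared or rose in OE. Of 18 HOX cluster lncRNAs 4 were members. HOTAIRM1 was at 0 in both BT549 EV libraries and at 27.7 and 32.8 in OE, at least 10.1-fold higher. HOXA10-AS rose from 18.6 and 34.3 to 119.6 and 169, a log2 fold change of 2.44 (SE 0.30, adjusted p = 3.43e-07), and HOTAIR, a scaffold of chromatin modifiers from the HOXC cluster, fell from 418 and 427 to 296 and 179, a log2 fold change of -0.83 (SE 0.20, adjusted p = 0.000995). HAGLR was at 0 in BT549 and fell in MDA-MB-231 KD from 715 and 686 to 495 and 494, a log2 fold change of -0.50 (SE 0.13, adjusted p = 0.00303). Of 24 lncRNAs beside matrix and epithelial-mesenchymal transition genes 4 were members, with 2 lower in MDA-MB-231 KD, 3 higher in SUM159 KD and 3 higher in OE, where 16.5%, 28.6% and 35.5% of all genes were called in these directions. ZEB1-AS1 rose in OE from 120.5 and 114 to 476 and 395, a log2 fold change of 1.89 (SE 0.12, adjusted p = 2.12e-12), while the transcription factor gene ZEB1, which starts 56 bases away, fell from 2129 and 2156 to 998 and 980.4, a log2 fold change of -1.11 (SE 0.06, adjusted p = 7.97e-14). MMP25-AS1 rose from 2.19 and 11.1 to 39.9 and 44.2, a log2 fold change of 2.64 (SE 0.45, adjusted p = 1.41e-05).

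The interferon and MHC region lncRNAs moved in both directions in OE, and those beside PSMB8 and BST2 fell. Of 20 listed 7 were members, and in OE 4 fell and 3 rose, beside 35% and 35.5% of all genes. In MDA-MB-231 KD 0 were higher and 1 lower (21.2% and 16.5% of all genes), and in SUM159 KD 2 were higher and 3 lower (28.6% and 31.5%). The MDA-MB-231 call, of HCG18, was lost without EV replicate 1 (adjusted p = 0.182) or KD replicate 1 (adjusted p = 0.162). In SUM159 the call of HCG18, which rose, was lost without EV replicate 2 (0.158) or KD replicate 1 (0.288) and with scaling by totals (0.0652). That of HCG11, which fell there, was lost without EV replicate 1 (0.487) or KD replicate 2 (0.207), in SUM159 alone (0.115) and with DESeq2 (0.0513). The median log2 fold change in OE was -2.49, compared to 0.02 over all genes tested. With 4 of the 7 lower and 3 higher, this median is the value of 1 member, MICB-DT, and no measure of a shared shift. PSMB8-AS1, divergent to the immunoproteasome gene PSMB8, had 271 and 247 normalized counts in the EV libraries and 26.6 and 20.4 in the OE libraries, a log2 fold change of -3.45 (SE 0.25, adjusted p = 1.72e-11). PSMB8 fell from 7678 and 7849 to 765 and 653. TAP1, the peptide transporter gene that holds 36.4% of the lncRNA's exon bases, fell from 23590.5 and 22656 to 912 and 929. BISPR, divergent to the antiviral gene BST2 and known as its positive regulator, fell from 37.2 and 35.5 to 0 and 2.26, or 32.5-fold lower (95% exact binomial interval 8.64 to 274, from 66 against 2 summed counts). BST2 fell from 23662 and 23171 to 16.6 and 21.5. The OE libraries of both pairs lay far below EV. MICB-DT fell from 203 and 220.5 to 41.0 and 34.0, a log2 fold change of -2.49 (SE 0.25, adjusted p = 4.44e-09), and LUCAT1 from 7.67 and 6.65 to 0 and 1.13, or 12.8-fold lower (95% exact binomial interval 1.92 to 543, from 13 against 1 summed counts). HCG18, HCG11 and NRAV, an lncRNA that dampens antiviral gene expression, rose in OE, with log2 fold changes of 0.99 (SE 0.08, adjusted p = 1.87e-10), 0.87 (SE 0.09, adjusted p = 5.82e-09) and 0.49 (SE 0.13, adjusted p = 0.00249). The promoters of PSMB8-AS1 and BISPR (RefSeq, GRCh38.p14, 250 bases before to 50 after the start) are shown because of their coding neighbours. Each lncRNA starts within 1000 bases of the start of a coding gene on the other strand that fell with it. Such a window can lie within the coding gene, and whether the promoter is shared was not tested. They were searched on both strands for the core of the element bound by interferon-activated factors, GAAA followed after 2 bases of any kind by another GAAA, and a match is in capitals.
PSMB8-AS1, chr6:32843836-32844135, plus strand: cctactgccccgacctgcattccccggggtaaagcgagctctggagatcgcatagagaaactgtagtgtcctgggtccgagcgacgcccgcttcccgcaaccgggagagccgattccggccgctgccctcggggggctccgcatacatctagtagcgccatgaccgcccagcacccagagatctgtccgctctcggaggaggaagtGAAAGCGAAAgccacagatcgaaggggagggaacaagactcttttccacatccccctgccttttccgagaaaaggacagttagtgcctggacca
BISPR, chr19:17405436-17405735, plus strand: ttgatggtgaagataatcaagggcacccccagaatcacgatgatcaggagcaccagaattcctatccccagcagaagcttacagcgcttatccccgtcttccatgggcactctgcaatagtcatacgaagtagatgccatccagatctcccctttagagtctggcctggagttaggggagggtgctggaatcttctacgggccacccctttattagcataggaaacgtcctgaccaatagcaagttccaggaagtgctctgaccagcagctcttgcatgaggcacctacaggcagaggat
PSMB8-AS1 had 1 match, at -44 from its start, and BISPR had none in this window. The motif occurred in 3.57% of 35116 RefSeq promoters and in 2.26% of the 265 members matched by symbol. It was found in 2 of the 6 matched members of the list, PSMB8-AS1 and HCG11, of which the first fell and the second rose.

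Divergent members moved with their coding neighbours more closely in some pairs than in others. Over 236 divergent pairs tested, Pearson's r between the log2 fold changes of member and neighbour was 0.17 in MDA-MB-231 KD, 0.51 in SUM159 KD and 0.62 in BT549 OE. Spearman's rho was 0.15, 0.39 and 0.46, and r was 0.25, 0.48 and 0.63 over the 105 of them whose member shares no exon base with a coding gene. These are descriptions across genes of the same libraries, and overlapping partners can share reads. Of pairs with both genes called, 24 of 37 (64.9%), 52 of 80 (65%) and 102 of 137 (74.5%) had the same direction. Members paired with the coding gene that shares their exon bases, which can be divergent too, had 18 of 26, 55 of 71 and 83 of 115. Agreement was thus not particular to divergent pairs. Genes that are not neighbours were not paired, so the agreement expected without a shared position is not known. Among members that share no exon bases with a coding gene, KDM7A-DT fell with the histone demethylase gene KDM7A in SUM159 KD, from 179 and 172 to 42.3 and 25.9, with log2 fold changes of -2.38 and -2.69. GAS6-DT rose with GAS6, the ligand of the TAM receptors, from 47.4 and 39.2 to 290.2 and 363, with 2.91 and 1.86. FOXD3-AS1 and FOXD3 both went to near 0 in OE, from 25.2 and 33.2 to 0 and 0 for the lncRNA, at least 9.74-fold lower, and from 78.9 and 54.3 to 1.11 and 0 for the coding gene. USP2-AS1 moved against USP2 on KD, with log2 fold changes of -0.60 and 0.66 in MDA-MB-231 and -0.77 and 0.99 in SUM159. These pairs were chosen after their values were seen.

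**Figure D5:**
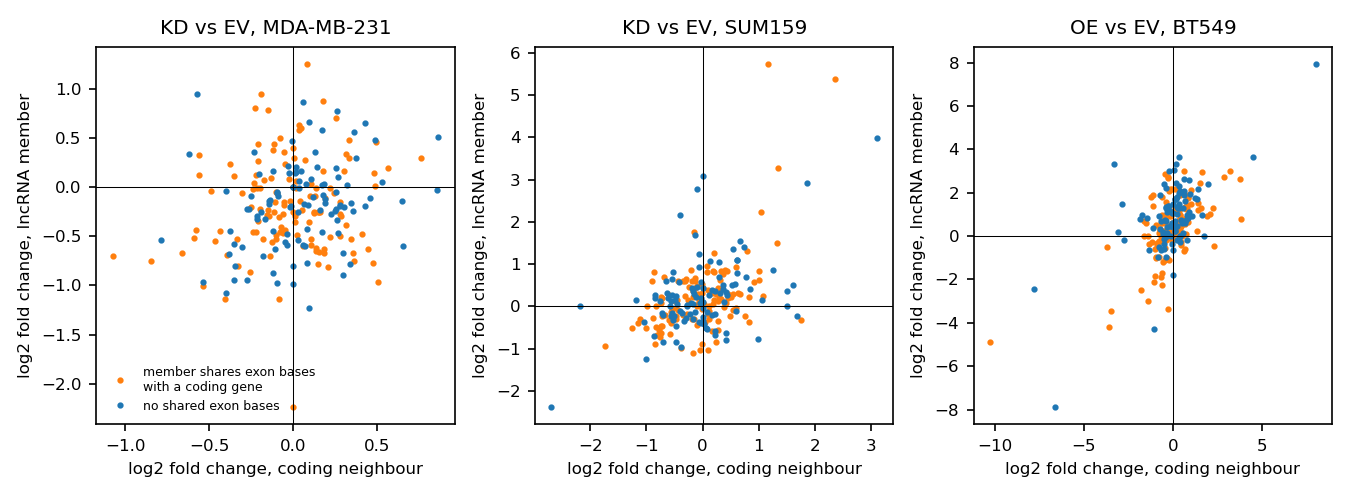
log2 fold changes of 236 divergent lncRNA members (vertical) against those of their coding neighbours (horizontal) in the 3 pairs, with members that share exon bases with a coding gene in orange and the others in blue. The points spread along the diagonal in SUM159 and BT549 (r = 0.51 and 0.62), with a few far points near 0 counts in a group, and less so in MDA-MB-231 (r = 0.17). The axes differ between panels.

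The balance of calls had the same direction in members that share no exon bases with a coding gene. Of these 346 members, 28 rose (8.09%) and 91 fell (26.3%) in MDA-MB-231 KD. In SUM159 KD 117 rose (33.8%) and 71 fell (20.5%), and in OE 153 rose (44.2%) and 80 fell (23.1%). Of the protein-coding genes that reach the rule's minimum, 28.1% rose and 20.2% fell in MDA-MB-231 KD. Their shares were 34.1% and 39.5% in SUM159 KD, and 39.2% and 42% in OE. The share of these members that rose in SUM159 KD was thus not above that of the coding genes. The members closest to the rule's minimum were ENSG00000290199 and LINC01002 just inside, at means of 50.1 and 50.2 counts, and WDFY3-AS2 and MIR31HG just outside, both at 49.9.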

How the data were processed

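Members, gene lists and tests were chosen with earlier results of these data known. Polysome RNA of 12 libraries was measured by RNA-seq, in 6 groups of 2 taken from the labels. Per the labels, the authors used Trimmomatic for trimming, HISAT2 for alignment to GRCh38, SAMtools and Partek. The deposited values are expected counts per Ensembl transcript. The version of these tools, the annotation and the strand setting are not given in the sources used here. The labels name poly(A) enrichment and the study's methods rRNA depletion with a stranded kit, which differ in the capture of RNA without a poly(A) tail. In the 8 columns of the KD lines 5.08% of rows hold a "?", read as 0, and the BT549 columns list no transcript at 0 in all of their libraries.

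Of 201932 transcripts, 79.6% matched GENCODE 44, holding 99.25% to 99.41% of the counts, and were summed per gene. Expected counts were rounded, and filterByExpr kept 16560 genes. The test was the quasi-likelihood test of edgeR 4.0.16 (R 4.3.3, TMM scaling) in 1 fit over the 6 groups with 6 residual degrees of freedom, with Benjamini-Hochberg adjustment and a threshold of 0.05. Totals per library were 22785057 to 27230158, which sets the counting error, and intervals and floors (3 counts per library) cover that error only. The alternatives were DESeq2 1.42.0, RLE or total scaling, other filters, a replicate block, single lines, sums per symbol, no "?" rows, and leaving out each library. Same-numbered libraries did not deviate together (correlations 0.0385, 0.000767 and 0.0248), so the main test has no block. Counts were simulated for 16560 genes with 200 changed by a log2 fold change of 1. Of these 96% (MDA-MB-231), 97% (SUM159) and 93.5% (BT549) were recovered, and 7.25%, 5.37% and 4.1% of calls were false. The simulation gave every gene the common dispersion of 0.000836 and the same mean in all lines. In the data the lines differ, far more genes were called and members varied more between libraries than all genes. These rates therefore need not hold for the members.

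Named members were list members with a mean of at least 500 counts, the 10 highest per length, the 4 largest changes in each direction of a pair (called, mean of at least 100, groups apart), the 3 in each direction called in both KD lines with the smallest p, and the 3 most abundant line-specific members of each line. Lists named other members by counts. Near-identical copies were found with BLAST 2.17.0. Promoters came from RefSeq (GRCh38.p14).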

Additional observations from a re-analysis of the deposited data

Results flagged for a closer look

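The effect of TRMT112 KD on a member differed between MDA-MB-231 and SUM159 for 30 of the 45 members named by rule, by edgeR's test of the difference itself at an adjusted p under 0.05. In 21 of them the log2 fold change was lower in MDA-MB-231 and in 9 it was higher, and in 17 the fold changes had opposite signs. The 45 include members chosen for a large change in a KD line or for being line-specific, which favours a difference between the lines. Their share is thus no measure of how often the effect differed. Over all 572 members it differed for 235 (41.1%), with 9.44% higher and 31.6% lower in MDA-MB-231. Of all genes tested, 27.7% were higher and 23.2% lower. All values here are the log2 fold change in MDA-MB-231 minus that in SUM159.

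Among members at or near 0 counts in a group, where the fitted value depends on the prior count and is no measure of size, the difference was -6.58 for MANCR, -5.27 for ATP6V0E2-AS1, -4.63 for ENSG00000287263 and -3.92 for ENSG00000227706. The difference was -2.13 for MUC20-OT1, -1.97 for DUBR, -1.22 for LINC00707, -1.21 for LINC01278 and -1.01 for LOXL1-AS1. It was -0.90 for ENSG00000270504, -0.83 for DANCR, -0.79 for ENSG00000278730, -0.77 for ENSG00000266709, -0.76 for ENSG00000275496 and -0.61 for LINC00963. It was smaller for LINC00511 (-0.54), VASH1-AS1 (-0.53), HCG18 (-0.48), CYTOR (-0.42), OIP5-AS1 (-0.39) and THAP9-AS1 (-0.24).

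The effect was higher in MDA-MB-231 for LINC01116 (2.36), DUXAP8 (2.33), ENSG00000284707 (1.88), PRECSIT (1.25), ENSG00000281181 (1.23), HCG11 (1.19), ENSG00000269973 (1.18), ENSG00000274265 (0.87) and MALAT1 (0.58). ENSG00000281181 lies in an 18S ribosomal RNA gene, and the part of ribosomal RNA reads in its counts was not tested. The calls for VASH1-AS1, THAP9-AS1, HCG11, ENSG00000275496, ENSG00000227706 and ENSG00000287263 were lost without single libraries, with highest adjusted p-values between 0.125 for THAP9-AS1 and 0.377 for ENSG00000275496.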

How the results depend on the processing

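Of the comparisons of named members that passed the threshold, none reversed under any alternative run. Their call was kept in 1574 repeats and lost in 84, of which 65 left out a library. Of repeats of values that had not passed, 10 changed sign, mostly near 0, and 6 passed the threshold. The latter included MALAT1 in OE, -0.22 without OE replicate 2 (adjusted p = 0.00575), MIR4435-2HG (1 repeat) and OIP5-AS1 (3) in MDA-MB-231 KD and PVT1 in the difference of the KD effects (1). MIR4435-2HG in SUM159 KD, -0.01 in the main test, was 0.044 with RLE scaling, 0.016 with a mean of at least 50 counts, 0.00068 in SUM159 alone, 0.041 with DESeq2 and between -0.043 and 0.022 without single libraries. MALAT1 in SUM159 KD, -0.03 in the main test, was 0.022 with RLE scaling and 0.019 with DESeq2. Without single libraries PVT1 in OE lay between -0.16 and 0.40, MALAT1 in OE between -0.22 and 0.093, and NORAD's difference of the KD effects between -0.0821 and 0.0020. Members higher in MDA-MB-231 KD numbered 28 to 36 without single libraries, against 43, since fewer samples were fitted. The log2 ratio of member shares was -0.12 per length and -0.21 without the members on ribosomal RNA genes in MDA-MB-231, -0.20 and 0.079 in SUM159, and 0.45 per length in BT549. Line-specific members numbered 32 at an 80% cut and 11 at 95% in MDA-MB-231, and 7 at 95% in BT549. Other counts of called members stayed within 1.5 times of the main value under the alternatives run. Counting depth limits members near 3 counts in a group, whose fitted folds depend on the prior count.

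With the replicate number as a block within each cell line, 42 members were higher and 135 lower in MDA-MB-231 KD, 177 and 118 in SUM159 KD and 253 and 120 in BT549 OE, and for the difference of the KD effects 53 and 181. Among EV libraries the blocked counts were 179 and 219, 136 and 282, and 131 and 295. Nothing in the labels pairs the libraries, and the block ended the call of 1 named result, MIR4435-2HG in OE (adjusted p = 0.0529).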
